A study of Rattus norvegicus with 2 samples.

Results

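Granins and prohormone processing enzymes were followed with every gene spot of a whole-genome rat array that carries the name of Chga, Chgb, Scg2, Scg3, Scg5, Pcsk1, Pcsk2, Pcsk1n, Cpe or Pam. The array holds 16 such probes, among 41012 gene probes under 35561 gene names in all. Of the 10 genes, 5 have 1 probe, 4 have 2 probes and 1 has 3 probes, and each probe is printed once per array. HIP rats, which are transgenic for the human form of islet amyloid polypeptide (IAPP), were compared with nondiabetic wild-type rats without it. The labels give no age, no sex, no treatment and no promoter for the transgene, and they call the material cell samples without naming a tissue. HIP rats are generally described as expressing the transgene from an insulin promoter, and thus in pancreatic beta cells. RNA from 2 wild-type and 2 HIP extracts was amplified by PCR as cDNA, and 1 extract of each genotype shared each of the 2 arrays. Wild type was always labelled with Cy3 and HIP always with Cy5, so a dye effect and a genotype effect cannot be told apart. Nothing states that the extracts came from separate animals, and the p-values cover only the spread among these 4 extracts, part or all of which may be technical.

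Peptide hormones are made as larger precursors that enter dense-core granules of endocrine cells and neurons. Granins are acidic proteins that aggregate with the precursors and help the granules form. The prohormone convertases encoded by Pcsk1 and Pcsk2 cut the precursors at pairs of basic residues, carboxypeptidase E (Cpe) trims the basic residues left at the ends, and peptidylglycine alpha-amidating monooxygenase (Pam) converts a terminal glycine to an amide. In beta cells, proinsulin needs the convertases and carboxypeptidase E, and IAPP needs the amidating enzyme as well.

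The promoters of these genes were read for short known motifs, since transcription of several granins is known to respond to cAMP through the cAMP response element. Promoters of 8 of the 10 genes were found in RefSeq (GRCr8). The 250 bases before each start site were searched on both strands. The half-site of the cAMP response element, TGACG, occurred in 6 of 8 of these promoters (Scg2, Scg3, Pcsk2, Scg5, Cpe and Pam) and in 18.2% of 33469 rat promoters of the same length. The full element, TGACGTCA, which contains the half-site, was found in Scg2 alone of the 8, and in 1.59% of all promoters. The 8 promoters had a median GC content of 56.6% (range 53.2% to 79.6%), against 51.2% for all, and the part of base composition in the half-site's share was not tested. The windows around the half-site are shown because its share stood farther above that of all promoters, in percentage points, than the share of any other motif searched. Capitals mark the match, CGTCA being the half-site read on the other strand, with up to 18 bases on either side.
Scg2, chr9:88256964-88257007, minus strand, 115 bases before the start: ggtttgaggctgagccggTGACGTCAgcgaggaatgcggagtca
Scg3, chr8:85322531-85322571, minus strand, 64 bases before the start: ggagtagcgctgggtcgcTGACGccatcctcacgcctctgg
Pcsk2, chr3:151333863-151333903, plus strand, 52 bases before the start: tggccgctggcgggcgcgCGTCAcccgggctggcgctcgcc
Scg5, chr3:121042796-121042820, minus strand, 2 bases before the start: cttggttgcggagggaggTGACGca
Cpe, chr16:29796516-29796556, plus strand, 168 bases before the start: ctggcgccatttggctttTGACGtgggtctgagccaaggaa
Pam, chr9:105570245-105570285, plus strand, 100 bases before the start: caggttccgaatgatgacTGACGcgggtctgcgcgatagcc
Other motifs gave mixed counts. The GC box GGGCGG occurred in 5 of the 8 promoters (Chgb, Pcsk2, Pcsk1n, Scg5 and Cpe) against 30.5% of all, and CCAAT in 2 (Scg3 and Pcsk2) against 34.0%. The E-box CANNTG occurred in 6 against 65.5%, and TATAAA in 0 against 12.9%. A match describes letters in a window and is not evidence that a factor binds there.

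Signal was higher over background in 3 extracts than in the fourth. Between 83.5% and 85% of gene spots were well above background in wild type 1, HIP 1 and HIP 2, against 73.6% in wild type 2. The 1112 spots for olfactory receptors, genes with little known expression outside the nose, were well above background in 77.4% to 90.1% of cases. Being well above background is therefore a statement about the spot and not about expression of the gene. Replicate spots of a probe on one array differed by a pooled SD of 0.08 (array 1) and 0.09 (array 2) in the log2 ratio. Over the 33650 probes tested, the ratios of the arrays had a correlation of -0.0084 across probes, which are not independent replicates.

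Of the 16 probes, 13 from 9 genes had at least 1 dye well above background on each of the arrays, and these were tested. Cpe, the 3′ probe of Chga and the 5′ probe of Pcsk1 were not. Levels are log2 normalized intensities in arbitrary units, and a ratio is the log2 difference of HIP minus wild type on an array. Neither these probes nor any other passed the test: limma with Benjamini-Hochberg adjustment at 0.05 called 0 of 33650 probes (0%), with 1099 (3.27%) at an unadjusted p under 0.05. The smallest adjusted p over all probes was 0.942.

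**Figure D1:**
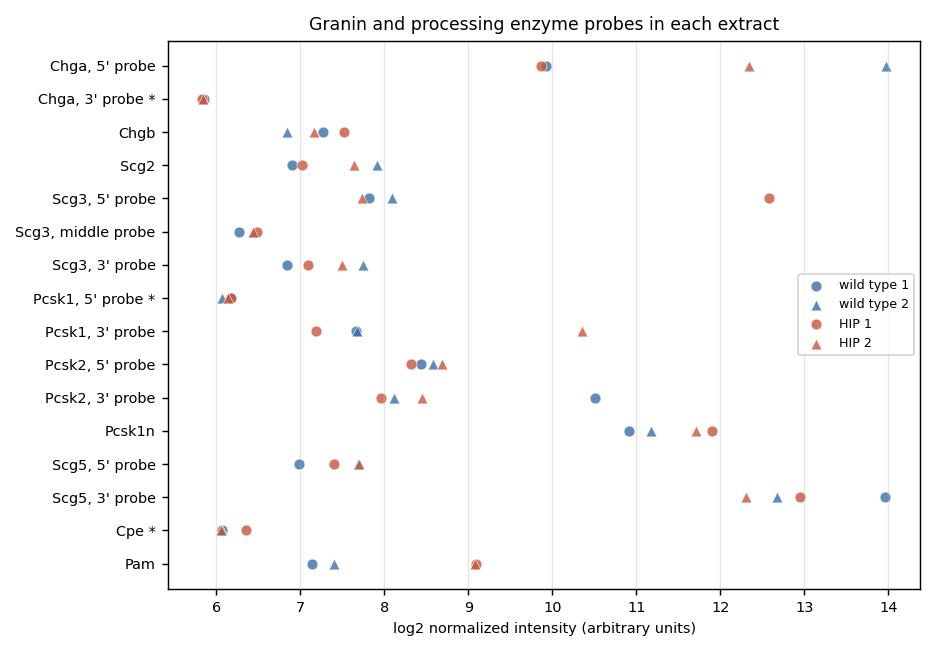
Level of each of the 16 probes (log2 normalized intensity, horizontal axis) in wild type 1 and 2 (blue) and HIP 1 and 2 (red), with circles for array 1 and triangles for array 2. Each point is 1 extract, an asterisk marks a probe that was not tested, and levels of different probes are not comparable. Pam and Pcsk1n have both red points to the right of both blue points, while Chga, Scg3, Pcsk1 and Pcsk2 each have a probe with at least 1 extract far from the rest.

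Among the granins, no gene kept a 2-fold difference in one direction on both arrays. Chgb was 1.19 and 1.26 times as high in HIP on the 2 arrays, whereas Chga had a log2 ratio near 0 on array 1 and of -1.63 on array 2, and Scg2 had ratios of opposite sign. Of the 3 probes of Scg3, the 5′ probe differed from the middle and 3′ probes on array 1.

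Chga encodes chromogranin A, the granin used as a general serum and tissue marker of endocrine cells and the precursor of pancreastatin and other peptides. Its 5′ probe (A_44_P300328, chromosome 6) had levels of 9.92 in wild type 1, 9.86 in HIP 1, 13.98 in wild type 2 and 12.34 in HIP 2. Both extracts of array 2 were thus higher than both of array 1, and the genotypes overlapped. The wild-type extracts were 16.6-fold apart and the HIP extracts 5.57-fold apart. The log2 ratio of HIP to wild type was -0.06 on array 1 and -1.63 on array 2, with a mean of -0.85 ± 1.11 (SD, n = 2 arrays; limma, Benjamini-Hochberg adjusted p = 0.942). The 3′ probe (A_42_P616342), 2916 bases further along the gene, was not well above background in any of the 4 extracts, with levels between 5.83 and 5.86. The probes of Chga thus disagreed on whether the transcript gave a signal at all.

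Chgb encodes chromogranin B, the granin that with chromogranin A makes up much of the granule matrix. Its probe (A_42_P485961, chromosome 3) had levels of 7.26 and 6.84 in wild type 1 and 2, and of 7.52 and 7.17 in HIP 1 and 2. HIP was the higher extract on either array, but HIP 2 lay below wild type 1, so the groups overlapped. The ratios of 0.26 and 0.33 were close to each other, with a mean of 0.29 ± 0.05 (SD, n = 2). This was smaller than the gaps between replicate extracts, 0.43 for wild type and 0.35 for HIP, and it did not pass the test (limma, Benjamini-Hochberg adjusted p = 0.969).

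Scg2 encodes secretogranin II, the precursor of secretoneurin. Its probe (A_44_P224516, chromosome 9) had levels of 6.90 and 7.91 in the wild-type extracts and of 7.02 and 7.64 in the HIP extracts. The HIP levels lay between the wild-type levels, and both extracts of array 2 were above both of array 1. The log2 ratios were 0.12 and -0.27, with a mean of -0.08 ± 0.28 (SD, n = 2; limma, Benjamini-Hochberg adjusted p = 0.999).

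Scg3 encodes secretogranin III, which binds chromogranin A, carboxypeptidase E and the cholesterol-rich granule membrane. Its 5′ probe (A_44_P559401, chromosome 8) had levels of 7.81 in wild type 1, 8.09 in wild type 2, 7.74 in HIP 2 and 12.58 in HIP 1. HIP 1 alone stood apart, 28.6-fold from HIP 2, and HIP 2 was the lowest of the 4. The ratios of 4.76 and -0.35 gave a mean of 2.21 ± 3.62 (SD, n = 2; limma, Benjamini-Hochberg adjusted p = 0.942). The middle probe (A_44_P339518), 15981 bases on, had levels from 6.27 to 6.48 and was above background in 1 of the wild-type extracts. The 3′ probe (A_43_P12960), 44391 bases from the 5′ probe, had levels of 6.84 and 7.74 in wild type and of 7.08 and 7.49 in HIP. In neither of these probes was HIP 1 raised above the rest as in the 5′ probe: their array 1 ratios were 0.21 and 0.24, and their means 0.10 ± 0.15 and -0.01 ± 0.35 (SD, n = 2).

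The convertases gave no difference that was repeated on both arrays, and each had 1 probe with a single extract far from the other 3. Their partners differed: Pcsk1n was higher in both HIP extracts than in both wild-type extracts, and the probes of Scg5 pointed in opposite directions. None of these differences passed the test.

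Pcsk1 encodes prohormone convertase 1, which cuts proinsulin and pro-opiomelanocortin among others. Its 3′ probe (A_42_P570848, chromosome 2) had levels of 7.66 and 7.67 in the wild-type extracts, 7.18 in HIP 1 and 10.35 in HIP 2. The wild-type extracts were nearly equal, while the HIP extracts lay on either side of them and were 9.0-fold apart. The log2 ratios of -0.48 and 2.68 had a mean of 1.1 ± 2.23 (SD, n = 2; limma, Benjamini-Hochberg adjusted p = 0.943). The 5′ probe (A_44_P374958), 1878 bases away, was above background in HIP 1 alone, with levels from 6.06 to 6.18 in the 4 extracts.

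Pcsk2 encodes prohormone convertase 2, the enzyme that releases glucagon in alpha cells and completes the processing of proIAPP. Its 5′ probe (A_44_P395764, chromosome 3) lies on segments 10666 bases apart from end to end, so that it crosses an intron. The 5′ probe of Scg5 (3959 bases) and the probe of Pcsk1n (466 bases) are also split in this way. Levels of the Pcsk2 5′ probe were 8.43 and 8.58 in wild type and 8.31 and 8.69 in HIP. The HIP levels enclosed the wild-type levels. The ratios of -0.12 and 0.11 had a mean of 0.00 ± 0.16 (SD, n = 2). The 3′ probe (A_44_P482629), 40965 bases on, had levels of 10.51 in wild type 1, 8.12 in wild type 2, 7.96 in HIP 1 and 8.45 in HIP 2. Here wild type 1 stood apart, 5.25-fold from wild type 2. The ratios of -2.55 and 0.34 had a mean of -1.11 ± 2.04 (SD, n = 2; limma, Benjamini-Hochberg adjusted p = 0.942).

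Pcsk1n encodes proSAAS, a granin-like protein whose C-terminal part inhibits prohormone convertase 1. Its probe (A_44_P1045950, chromosome X) had levels of 10.91 and 11.17 in the wild-type extracts and of 11.90 and 11.71 in the HIP extracts. Both HIP extracts were above both wild-type extracts, and the replicate gaps of 0.26 and 0.19 were smaller than the difference between genotypes. The log2 ratios were 0.98 and 0.54, with a mean of 0.76 ± 0.32 (SD, n = 2; limma, unadjusted p = 0.168, Benjamini-Hochberg adjusted p = 0.942). Pcsk1n has 1 probe on the array, so no other probe could be set beside it.

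Scg5 encodes the chaperone that prohormone convertase 2 needs to become active. Its 5′ probe (A_44_P509922, chromosome 3) had levels of 6.98 and 7.69 in wild type and of 7.40 and 7.70 in HIP, with both extracts of array 2 above both of array 1. Its ratios were 0.42 and 0.01, with a mean of 0.22 ± 0.29 (SD, n = 2; limma, Benjamini-Hochberg adjusted p = 0.989). The 3′ probe (A_43_P14888), 15969 bases on, had levels of 13.96 and 12.67 in wild type and of 12.95 and 12.31 in HIP. HIP was lower on each array, but HIP 1 lay above wild type 2. The ratios of -1.01 and -0.36 had a mean of -0.69 ± 0.46 (SD, n = 2; limma, Benjamini-Hochberg adjusted p = 0.942), and the wild-type extracts themselves were 2.44-fold apart. Relative to the median of all probes, this mean was 0.029 where the arrays were only centred on their median instead of normalized by loess, so the direction of the 3′ probe rests on the normalization.

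Of the enzymes that finish the peptides, Pam was on average 3.52 times as high in HIP, with replicates close together, and Cpe gave too little signal to compare. The difference in Pam did not pass the test after adjustment. Cpe trims the ends left by the convertases and is also proposed to sort precursors into granules. Its probe (A_44_P204704, chromosome 16) was well above background in HIP 1 alone, at 6.35, while the level was 6.06 in both wild-type extracts and 6.05 in HIP 2. The probe was not well above background in the other 3 extracts, so no fold is given.

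Pam is the only enzyme known to amidate peptides in mammals, and IAPP is among its products. Its probe (A_44_P144001, chromosome 9) had levels of 7.14 and 7.40 in wild type 1 and 2 and of 9.09 and 9.08 in HIP 1 and 2. Both HIP extracts were above both wild-type extracts. The HIP extracts were 1.00-fold apart and the wild-type extracts 1.20-fold. The spot was 3.53 and 2.42 times its background in wild type 1 and 2, and 16.4 and 16.1 times in HIP 1 and 2. Pam has 1 probe on the array, so its ratios could not be set beside those of another probe. HIP was 3.86-fold higher on array 1 and 3.21-fold on array 2, log2 ratios of 1.95 and 1.68 with a mean of 1.82 ± 0.19 (SD, n = 2; limma SE 0.39). The unadjusted p was 0.0235, and the limma p after Benjamini-Hochberg adjustment over all 33650 probes was 0.942. The size depended on the processing: without background correction the mean was 2.07, with a normexp offset of 16 it was 2.21, and with the scanner's own processed ratios, which replace both the background correction and the normalization, it was 2.75.

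**Figure D2:**
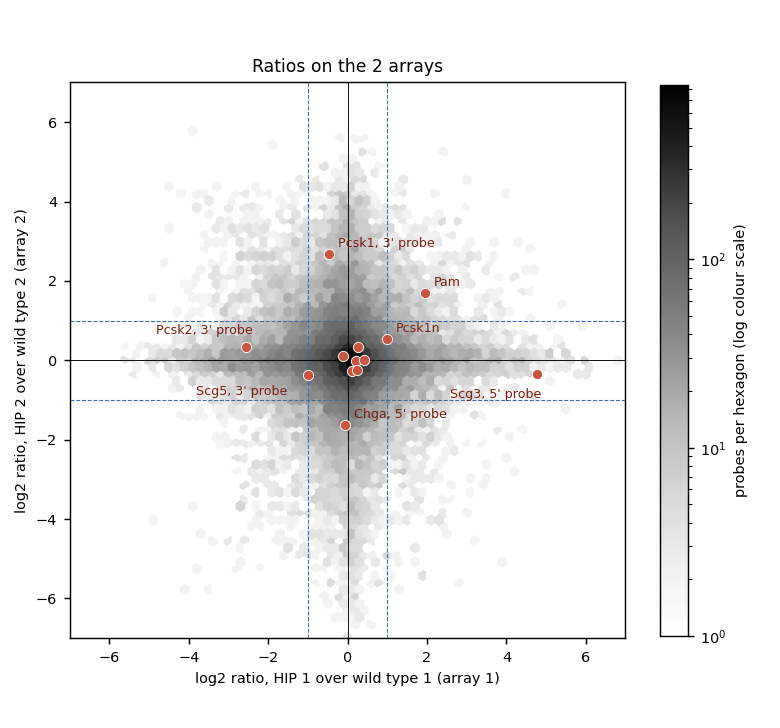
Log2 ratio of HIP over wild type on array 1 (horizontal axis) and array 2 (vertical axis) for the 13 tested probes of these genes (red) and for all tested probes (grey hexagons, log colour scale). Dashed lines mark 2-fold. Pam, at 1.95 and 1.68, is the red point in the upper right corner field, and the other large ratios lie along one axis only.

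Across the 13 tested probes, counts by sign were near the shares among all probes. HIP was higher on both arrays for 4 of the 13 (26.9% of all tested probes), lower on both for 2 (22.9%), and of opposite sign for 7 (50.2%). A difference of at least 2-fold in one direction on both arrays was found for 1 probe higher in HIP, Pam (2.57% of all), and for 0 lower (2.44%). At least 2-fold on at least 1 array was found for 6 of 13 (48.0%), and in opposite directions on the arrays for 0 (5.43%). The median of the mean log2 ratios was 0.10, against 0.02 for all tested probes, and the median of their absolute values was 0.69, against 0.43. With 2 arrays, an exact two-sided sign-flip test of one probe cannot give a p below 0.5.

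The replicate extracts differed as much as the genotypes did. Wild-type extracts were at least 2-fold apart for 4 of 13 probes (29.9% of all) and HIP extracts for 3 (30.3%). The larger of the replicate gaps exceeded the mean genotype difference for 11 of 13 probes, Pam and Pcsk1n being the exceptions, and for 83.1% of all tested probes. Those 2 probes were also the ones with both HIP extracts above both wild-type extracts (15.7% of all), and 0 had both below (15.1%). By contrast, the extracts of one array were both above those of the other for 8 of 13 probes (37.8% of all). Array 2 was the higher one for 6 of these (Chga 5′, Scg2, Scg3 3′, Pcsk1 3′, Pcsk2 5′ and Scg5 5′), against 22.2% of all. Array 1 was higher for Chgb and Scg5 3′, against 15.7% of all. This count was chosen after the values were seen, and levels across arrays also carry each array's own hybridisation.

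**Figure D3:**
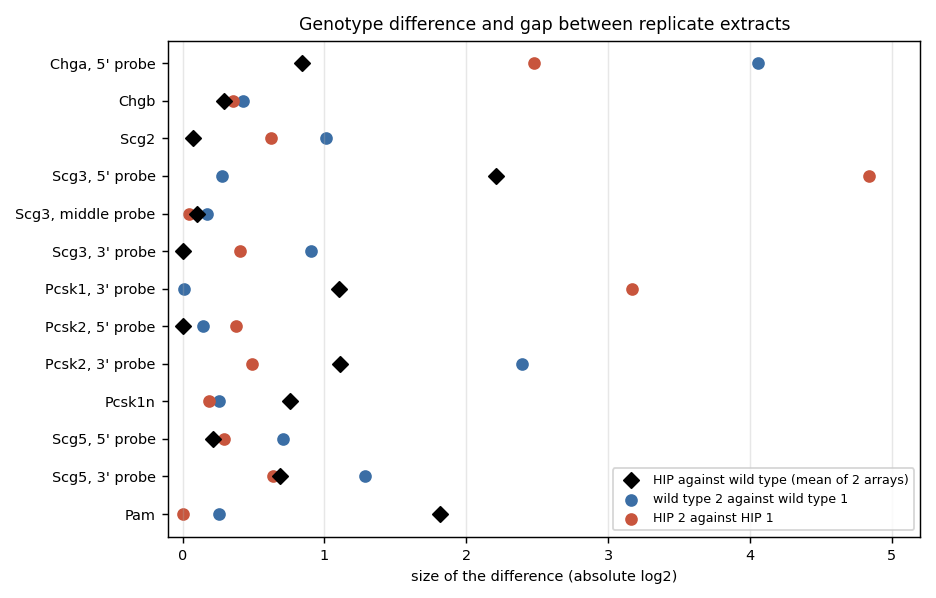
Size of the mean difference between genotypes (black diamonds) and of the gap between the wild-type extracts (blue) and between the HIP extracts (red) for the 13 tested probes, in absolute log2 units. The black diamond lies to the right of both circles for Pam and Pcsk1n alone. For Chga 5′ the wild-type gap is 4.05, and for Scg3 5′ the HIP gap is 4.84.

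Different probes of one gene did not give one answer. Among tested probes, 4 of 5 pairs within a gene had ratios at least 2-fold apart on at least 1 array (80.0%), and so had 3210 of 4826 pairs in all other genes (66.5%). Every one of these gaps in Scg3, Pcsk2 and Scg5 was on array 1. The 5′ probe of Scg3 differed from the middle probe by 4.56 on array 1 and by 0.34 on array 2 (log2), and from the 3′ probe by 4.52 and 0.10. The pair of Pcsk2 differed by 2.43 and 0.22, and that of Scg5 by 1.43 and 0.37. The middle and 3′ probes of Scg3 stayed within 0.03 and 0.24 of each other.

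The authors' deposited table has 1 value per array for each of the 10 genes. For the 5 genes with 1 probe it equals the scanner's log ratio. For all 5 genes with several probes it equals, within 0.001 in log10, the mean of the scanner's log ratios weighted by the inverse square of each spot's stated error, as it does for 3484 of 3678 transcripts with several probes (94.7%). The plain mean matched for 0 of those 5 genes and for 3.59% of the transcripts. In the authors' deposited table, the mean log2 ratio was 0.27 for Scg3, -0.30 for Pcsk2 and -0.14 for Scg5, so that the 2.21 of the 5′ probe of Scg3 and the -1.11 of the 3′ probe of Pcsk2 are not visible in it. The same table gives 1.41 for Cpe, a probe above background in 1 of 4 extracts, from 2.50 on array 1 and 0.32 on array 2.

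**Figure D4:**
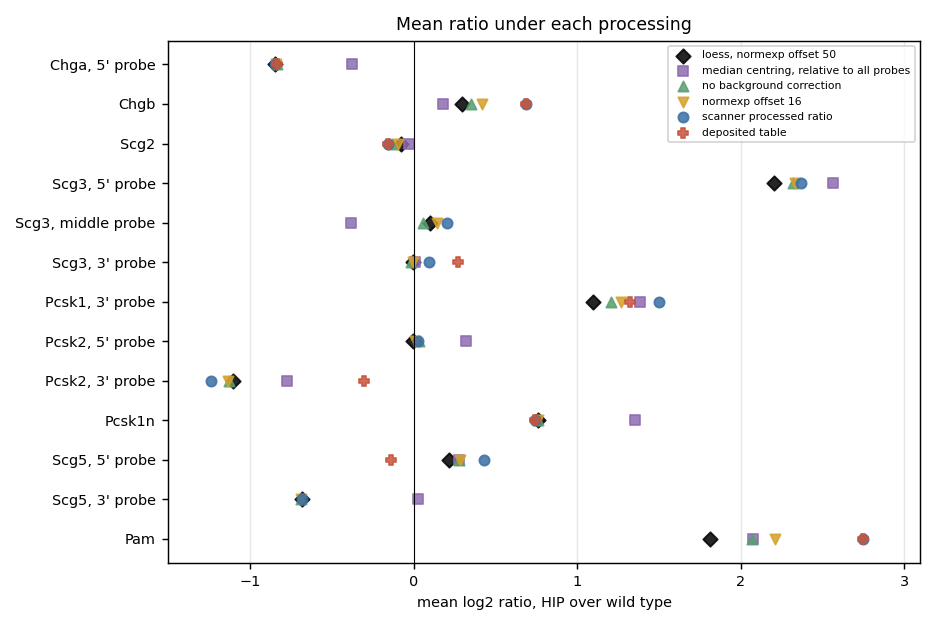
Mean log2 ratio of HIP over wild type (horizontal axis, mean of 2 arrays) of the 13 tested probes under 6 ways of processing, with median centring given relative to the median of all probes. Deposited values stand at the probe they are listed under and, for genes with several probes, are weighted means over the gene. Pam lies between 1.82 and 2.75 throughout, and Scg5 3′ moves from -0.69 to 0.029 with median centring.

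Other genes of the secretory pathway were taken from lists, and none of their probes passed the test. Those named were among the 2 highest and 2 lowest means of their list, taken over probes above background in all 4 extracts, except that Ins1, Ins2, Gcg, Sst and Iapp are given as the main substrates wherever they ranked. Of the other processing enzymes, 24 of 27 listed genes had tested probes. Of those 31 probes, 6 were higher in HIP on both arrays, 10 lower and 15 of opposite sign, with a median mean ratio of -0.08. Among all tested probes, 26.9% were higher on both arrays, 22.9% lower and 50.2% of opposite sign. The counts of every list below are to be read beside these shares. Rnpep, which encodes an aminopeptidase for basic residues, had the lowest mean (-3.31 ± 1.76, SD, n = 2), followed by Mme, which encodes neprilysin, at -2.24 ± 1.23. The highest means were those of Ctsl, the lysosomal protease cathepsin L, at 1.40 ± 2.00 from ratios of 2.82 and -0.01, and of Ide, the insulin-degrading enzyme, at 1.38 ± 0.34. At Ide both ratios, 1.14 and 1.62, were above 2-fold, as they were in the opposite direction at Rnpep (-4.56 and -2.07) and Mme (-3.12 and -1.37). Another tested probe of Ctsl had ratios of 1.13 and 0.05.

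Of the other granule cargo and membrane genes, 30 of 32 were measured with 40 probes. Of these, 13 were higher on both arrays, 8 lower and 19 of opposite sign, with a median of -0.03. Atp6ap2, an accessory subunit of the proton pump that acidifies granules, had the highest mean, 1.72 ± 0.16 (SD, n = 2), with ratios of 1.61 and 1.83. Slc18a2, the vesicular monoamine transporter, followed at 1.42 ± 0.97. Other tested probes had ratios of 2.60 and -0.01 for Atp6ap2 and of 0.11 and -0.25 for Slc18a2. The lowest mean was that of Syp (synaptophysin), at -2.97 ± 4.66 from ratios of 0.32 and -6.27. A probe of Ptprn2 (phogrin, a granule membrane protein) was next at -2.65 ± 1.76, from -3.89 and -1.41. Another tested probe of Ptprn2 went the other way on both arrays, with ratios of 0.42 and 1.41.

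Of the genes for granule formation and exocytosis, 44 of 47 were measured with 52 probes, of which 18 were higher on both arrays, 10 lower and 24 of opposite sign (median 0.11). At least 2-fold higher on both arrays were 4 probes (2.57% of all tested probes), and 0 were at least 2-fold lower (2.44%). The same counts, higher and lower, were 1 and 2 for the other processing enzymes and 1 and 1 for granule cargo and membrane genes. For the peptide precursors they were 2 and 1. Stxbp2, which encodes a syntaxin-binding protein, had a mean of 2.17 ± 0.76 (SD, n = 2), with ratios of 2.70 and 1.63. The lowest means were those of the calcium sensor Doc2b, at -1.26 ± 1.41, and of Cadps, a factor that primes dense-core granules, at -1.11 ± 1.93.

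Among the precursors that these enzymes act on, 30 of 34 listed genes were measured with 36 probes. Of these, 11 were higher in HIP on both arrays, 8 lower and 17 of opposite sign, with a median of 0.05. Ins1 and Ins2, which encode the proinsulins of the rat, had ratios of -1.18 and -1.02 and of -1.04 and -0.85, with means of -1.1 ± 0.12 and -0.94 ± 0.14 (SD, n = 2). Iapp, the rat's own IAPP, had a mean of 0.31 ± 0.29 and Sst (somatostatin) one of 0.11 ± 0.03. Neither of these probes was well above background in all 4 extracts, and their levels of 6.21 to 6.83 lay near the limit. Gcg (proglucagon) had ratios of 2.84 and -1.35. The highest means were those of a probe of Gip, the precursor of an incretin (2.28 ± 1.25), and of Pomc, the precursor of corticotropin (2.17 ± 1.42). Another tested probe of Gip was lower in HIP on both arrays, with ratios of -0.73 and -0.09. The lowest mean, beside Ins1, was that of Bdnf, a neurotrophin precursor (-1.37 ± 1.64). Pam and the insulin genes thus had ratios of opposite sign on each array, and the difference between them was not tested.

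**Figure D5:**
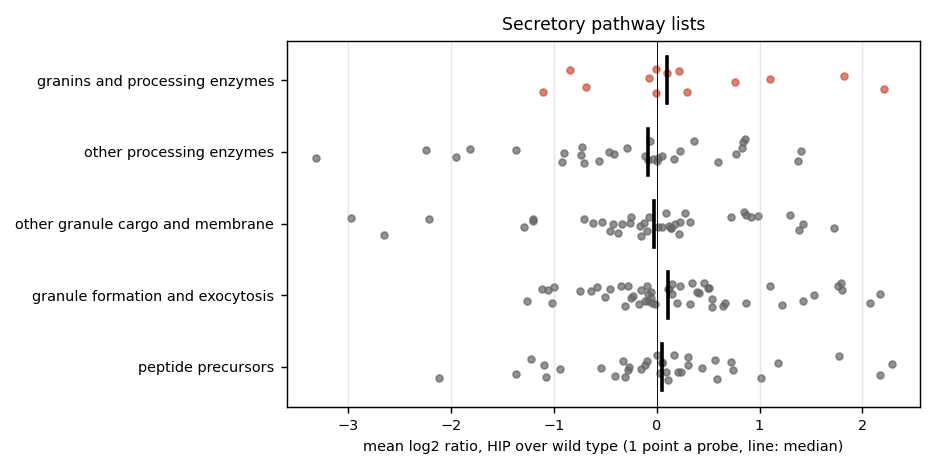
Mean log2 ratio of HIP over wild type (horizontal axis) of each tested probe of the granins and processing enzymes (red) and of 4 lists of other secretory pathway genes (grey), 1 point a probe, with the median as a black line; vertical spread within a row is for legibility only. The medians lie between -0.08 and 0.11, and single probes reach from -3.31 to 2.28.

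Cell types that make these proteins, or that could have been lost or gained between extracts, were followed with marker lists. In such samples, fewer cells of a type and less RNA per cell cannot be told apart. Islet endocrine markers (18 tested probes of 21) had summed normalized intensities of 44014 and 38934 in wild type and of 34757 and 24567 in HIP, and 6 were higher in HIP on both arrays and 5 lower. Most of this sum was Ins1 and Ins2. Without them it was 8890 and 10100 in wild type and 18100 and 9100 in HIP, so that the genotypes overlapped. Acinar markers (19 of 20) summed to 43310 and 50844 in wild type and to 38851 and 50760 in HIP. Such sums include probes near background and do not show that a cell type was present. Duct markers (15 of 18) summed to 22891 and 9506 in wild type and to 6174 and 6110 in HIP. Of these 15 probes, 2 were higher in HIP on both arrays (26.9% of all tested probes), 8 lower (22.9%) and 5 of opposite sign (50.2%). The highest duct level in wild type 1, 13.28, was that of a Krt18 probe with ratios of -2.86 and 1.30. No duct probe was left out of these sums. Immune markers (19 of 19) summed to 13545 and 15223 in wild type and to 10760 and 11351 in HIP. Of these 19 probes, 4 were higher in HIP on both arrays, 4 lower and 11 of opposite sign. C1qb, among the brightest of them, had ratios of -0.68 and 0.45.

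Markers of neurons, glia and chromaffin cells, which also make granins, summed to 8157 and 6762 in wild type and to 17335 and 6429 in HIP (12 tested probes of 13, 2 higher on both arrays and 3 lower). HIP 1 had the highest sum here, as it did for islet markers without Ins1 and Ins2 and for endothelial markers. Much of that sum was Th, the tyrosine hydroxylase of catecholamine-making cells, without which it was 8090 in HIP 1 and 6180 to 7380 in the other 3 extracts. Endothelial markers (10 of 10) summed to 3346 and 3137 in wild type and to 10893 and 2930 in HIP. The high sum in HIP 1 came from 1 probe, Esam, without which HIP 1 was the lowest extract, at 2170 against 2630 to 3110. Markers of stellate cells and fibroblasts (9 of 11) summed to 5892 and 7957 in wild type and to 5468 and 7375 in HIP. The part of any of these lists in the values of the granins and processing enzymes was not tested.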

How the data were processed

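Two-colour Agilent arrays (design 014879) were, per the file headers, quantified with Agilent's Feature Extraction software, version 9.5.1.1. For each spot and dye, the authors deposited the mean and the local background intensity, unnormalized, and a processed intensity. They also deposited the log10 ratio of the processed signals with its error and a p-value from the software's error model, per the file headers. The authors' deposited table holds log10 ratios of Cy5 over Cy3, without further centring. The array is labelled in the files with probe positions, and their genome build is not given here by header or label, so only chromosomes and distances between probes are printed.

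Here, intensities were corrected with normexp (offset 50) in limma 3.58.1 (R 4.3.3) and normalized within arrays by loess, control spots having weight 0. Outlier spots were left out and replicate spots averaged. Probes with at least 1 dye well above background on each array were kept (33667 of 41012), and 33650 had a value on both arrays. Levels per extract were normalized between arrays with Aquantile, which keeps each array's ratio. Ratios on the log2 scale were set against 0 by lmFit and eBayes (a two-sided test; residual degrees of freedom 1, prior degrees of freedom 1.7, prior SD 0.68), with Benjamini-Hochberg adjustment over all probes. The fit was tested on simulated data. There, recovery of changed probes was required only at a spread smaller than that of these arrays, so it does not bear on the count called. No gene spot was saturated, and 2 arrays limit the precision. A single slide and scan held both arrays, so neither could be tested as a batch. Batches of extraction, amplification or labelling were not tested.

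Probes were found by the array's gene names. Every probe of the 10 genes is named, together with Ins1, Ins2, Gcg, Sst and Iapp, and the 2 highest and 2 lowest mean ratios of each pathway list among probes above background in all 4 extracts. A result that this rule names is not reported here. The genes and lists were chosen with earlier results of these data known. Alternatives were median centring, no normalization, no background correction, an offset of 16, outlier spots kept, the scanner's and the deposited ratios, no filter, a filter on both dyes, trended or robust priors, 4 channels as separate samples, 1 probe a gene, and leaving out each array. The agreement of probes within a gene was recomputed under these after the data had been seen.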

Additional observations from a re-analysis of the deposited data

How the results depend on the processing

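The count of probes past the test was 0 under each of the 13 alternatives fitted with 2 arrays, with 954 to 5588 probes at an unadjusted p under 0.05 and a smallest adjusted p of 0.290 (limma, Benjamini-Hochberg), which came from ratios without normalization, whose medians were 0.78 and 1.19. Probes of these genes at least 2-fold apart the same way on both arrays numbered 1 (Pam), but 2 with median centring (Pam and Pcsk1n) and 5 without normalization, where 27.6% of all probes passed. These counts used the ratios as fitted, not relative to the median over all probes. With 1 array left out the number was 3 to 4, against 28.0% to 30.5% of all probes. Pairs of probes within a gene that were 2-fold apart numbered 4 of 5. They numbered 3 of 5 with median centring and without normalization, 3 of 3 with the filter on both dyes, 6 of 7 without a filter, and 0 to 4 of 5 with 1 array left out. The deposited table, with 1 value a gene, gives none. Of the 6 probes with one sign on both arrays, mean ratios reversed for those of Scg5: the 5′ probe was -0.14 in the deposited table, which weights it with the 3′ probe, and the 3′ probe's mean, taken relative to the median over all probes, was 0.029 with median centring or no normalization (the cause was not tested). Of 186 recomputed means of these probes, 86 were identical, mostly because those settings change the test or the set of probes and not the ratio, and 21 of the other 100 had the opposite sign. Of these, 7 came from leaving out 1 array, such as Scg3 5′ (-0.35), Pcsk1 3′ (-0.48), Pcsk2 3′ (0.34) and Scg2 (0.12). Relative to the median over all probes, the middle probe of Scg3 was at -0.38 and the 5′ probe of Pcsk2 at 0.32 with median centring. For median centring and no normalization, means were taken relative to the median over all probes. On that scale, the means of Chga, Chgb, Pcsk1n and Pam kept their sign under every setting. For Chga, the array 1 ratio changed from -0.06 to 0.33 with median centring or no normalization, relative to the median over all probes. The ratios pair the extracts of an array, and the fit without this pairing, on 4 channels, called 0 probes.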
